A study of Mus musculus with 36 samples.

Results

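This account follows 30 genes of cholesterol synthesis and efflux through adipocytes of 2 mouse fat depots. The genes were taken by symbol from the table that pairs array probe sets with genes, and 27 of the 30 were found there, on 29 of the 23410 probe sets that carry a gene symbol. Acat2, Nr1h2 and Soat1 were not analysed here. A probe set that listed Srebf2 together with other symbols was left out. Idi1 and Fdft1 have 2 probe sets each.

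The arrays were of the Affymetrix type Mouse Gene 1.0 ST and were given RNA of floating adipocytes, and a level is a deposited log2 signal. All mice were male and of the C57BL/6J background. The 12 groups were epididymal and bone marrow adipocytes of leptin-deficient ob/ob mice on control diet at 6 months, of wild type mice on a high-fat diet (HFD, 60% of calories from fat) at 6 and 14 months, and of wild type mice on standard chow at 6, 14 and 18 months. Each group had 3 arrays. Per the study's methods, each array of the 6- and 14-month groups held RNA pooled from several of the 6 to 10 animals of its group. The ± values of arm levels and group means below are SDs between the arrays of a group, and thus between pools in these groups. Those of log2 differences are standard errors from limma, with a spread estimated over all groups fitted. The methods do not describe the 18-month groups, so pooling and animal number are not known for them here. Both depots of the chow and HFD mice of 6 and 14 months came from the same animals per the study, while the labels do not say which pools shared them, so comparisons between depots treat the arrays as independent. The labels call the epididymal cells peripheral white adipocytes, and the name epididymal comes from the study's methods.

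Cholesterol synthesis is governed by SREBP2, a transcription factor encoded by Srebf2 and held in the endoplasmic reticulum while sterols are plentiful. INSIG1 does the holding, and its own gene is an SREBP target. When sterols run low, SREBP2 is cut free and turns on the enzymes that build cholesterol from acetyl-CoA. The liver X receptors, LXRα (Nr1h3) and LXRβ (Nr1h2), answer the opposite state: bound by oxysterols, they switch on the exporters ABCA1 and ABCG1, the sterol carrier ApoE and MYLIP, a ubiquitin ligase that removes the LDL receptor. NPC1 and NPC2 pass cholesterol out of lysosomes. Adipocytes hold a large store of free cholesterol, much of it with their lipid droplet. The 17 measured synthesis enzymes with Srebf2, Insig1 and the sterol carrier gene Stard4 are called the SREBP2 arm here (20 genes), and Nr1h3, Abca1, Abcg1, Mylip and Apoe the LXR arm (5 genes).

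The stretches of promoter below show what upstream sequence 4 genes of the SREBP2 arm on which the results turn have, beside that of Abca1 from the LXR arm. They come from RefSeq promoter windows of build GRCm38.p6, which run from 250 bases before to 50 bases after the annotated start of a gene. A window was found for 24 of the 30 genes, and none for Fdps, Fdft1, Sqle, Stard4, Abcg1 and Npc1. Capitals mark matches on either strand to the core of the sterol regulatory element bound by SREBP (TCACNCCAC), to the E-box (CACGTG), to the CCAAT box (CCAAT, or ATTGG on the other strand) or to the GC box (GGGCGG). Every stretch lies before the start of its gene.
Hmgcs1, chr13:119690114-119690233, plus strand, sterol regulatory element and CCAAT boxes in capitals: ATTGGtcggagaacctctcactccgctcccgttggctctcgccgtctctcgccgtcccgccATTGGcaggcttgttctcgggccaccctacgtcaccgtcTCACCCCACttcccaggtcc
Msmo1, chr8:64733619-64733738, minus strand, CCAAT and GC boxes in capitals: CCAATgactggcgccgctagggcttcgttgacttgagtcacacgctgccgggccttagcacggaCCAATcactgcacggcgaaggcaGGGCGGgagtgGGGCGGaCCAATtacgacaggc
Nsdhl, chrX:72918401-72918520, plus strand, CCAAT and GC boxes in capitals: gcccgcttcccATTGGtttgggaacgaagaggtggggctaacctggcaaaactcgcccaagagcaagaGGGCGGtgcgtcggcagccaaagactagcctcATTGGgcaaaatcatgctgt
Insig1, chr5:28071292-28071411, plus strand, E-box in capitals: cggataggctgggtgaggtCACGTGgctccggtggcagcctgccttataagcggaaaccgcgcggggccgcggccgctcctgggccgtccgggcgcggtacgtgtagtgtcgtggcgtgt
Abca1, chr4:53159939-53160058, minus strand, E-box and GC boxes in capitals: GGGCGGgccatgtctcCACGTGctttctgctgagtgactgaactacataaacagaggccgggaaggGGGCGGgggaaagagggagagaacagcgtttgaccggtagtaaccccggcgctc

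Windows stood for 17 SREBP2 arm genes, Acat2 among them, and for 5 LXR arm genes, Nr1h2 among them. A CCAAT box was found in at least 1 window of 16 of the 17 (not Acat2), of 1 of the 5 (Mylip), and in 37.4% of all 32851 windows. The GC box was found in windows of 16 of the 17 and of 2 of the 5, against 35.7% of all windows. The sterol element core was found in Hmgcs1 alone among the members and in 1.24% of all windows. The E-box was found in 4 SREBP2 arm genes (Hsd17b7, Sc5d, Dhcr7 and Insig1) and in Abca1, against 7.15% of all windows. AGGTCA, the half-site read by nuclear receptors, was found in 3 SREBP2 arm genes and in none of the LXR arm, against 16.3% of all windows, and in Insig1 it overlaps the E-box. The exact half-site repeated in one direction with 4 bases between, an ideal form of the element known for LXR, was found in no member. It was found in 0.0152% of all windows. Dhcr7, Pmvk, Nr1h3 and Apoe have more than 1 window, and a match is only a description. LXR sites that differ from these letters, also within the stretches shown, or that lie outside these 300 bases were not searched for. So a member without a match, Abca1 among them, may still have an LXR site in its window.

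The arrays were alike in scale, with array medians of 5.58 to 5.98 on the log2 scale, and the number of arrays limits the precision. The epididymal arrays had mean log2 levels of 11.42 to 12.79 over 7 mature adipocyte markers. On the bone marrow arrays these markers averaged 6.64 to 8.67, while 6 neutrophil granule markers averaged 11.89 to 12.47 there and the erythroid markers 9.58 to 10.95. The bone marrow values therefore describe a preparation in which the defining adipocyte genes were low. In bulk samples like these, fewer cells of a type and less RNA per cell cannot be told apart. A set of 8 arrays (all epididymal and bone marrow HFD arrays of 6 months, bone marrow 6-month chow array 1 and bone marrow ob/ob array 3) was divided from the other 28 by gaps of at least 1 log2 in 19 of 12146 unnamed probe sets. The labels name no batch, so values with a term for this set are given where it changes a count, and within epididymal cells the set and HFD at 6 months cannot be told apart. The term was estimated only within the bone marrow groups of 6-month chow and ob/ob, which hold arrays in and out of the set. With it, a difference measured in bone marrow is taken off the epididymal values, so those values are not an adjustment made within epididymal cells. The 6 arrays of 18 months were divided from the other 30 by 5 such probe sets, and for them the age and that grouping cannot be told apart.

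The 2 arms followed different courses in epididymal adipocytes. An arm level is the mean over its genes of the log2 level, each gene set to 0 at its mean over the 36 arrays. In epididymal adipocytes of chow mice the SREBP2 arm stood at 0.52 ± 0.16 at 6 months, 0.45 ± 0.12 at 14 months and 1.26 ± 0.02 at 18 months (SD, n = 3 each). The 3 arrays of 18 months read 1.25, 1.28 and 1.25, above every other array of the series. The LXR arm of the same cells stood at 0.58 ± 0.08, 0.76 ± 0.02 and 0.47 ± 0.01 at these ages, and its difference between 18 and 6 months was −0.11, or 0.08 after each array was centred on its median.

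On HFD the epididymal SREBP2 arm stood at 0.82 ± 0.05 at 14 months and 0.48 ± 0.06 at 6 months, and in ob/ob mice at 0.14 ± 0.42. The ob/ob arrays read −0.34, 0.30 and 0.44, so that 1 of the 3 pools stood far below the others. The LXR arm stood at 0.71 ± 0.07 on HFD at 14 months, 0.60 ± 0.03 on HFD at 6 months and 0.64 ± 0.20 in ob/ob mice. Over the 12 groups the mean of the SREBP2 arm ran from −0.77 to 1.26, and that of the LXR arm from −0.88 to 0.76. No test was made of an arm level.

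**Figure D1:**
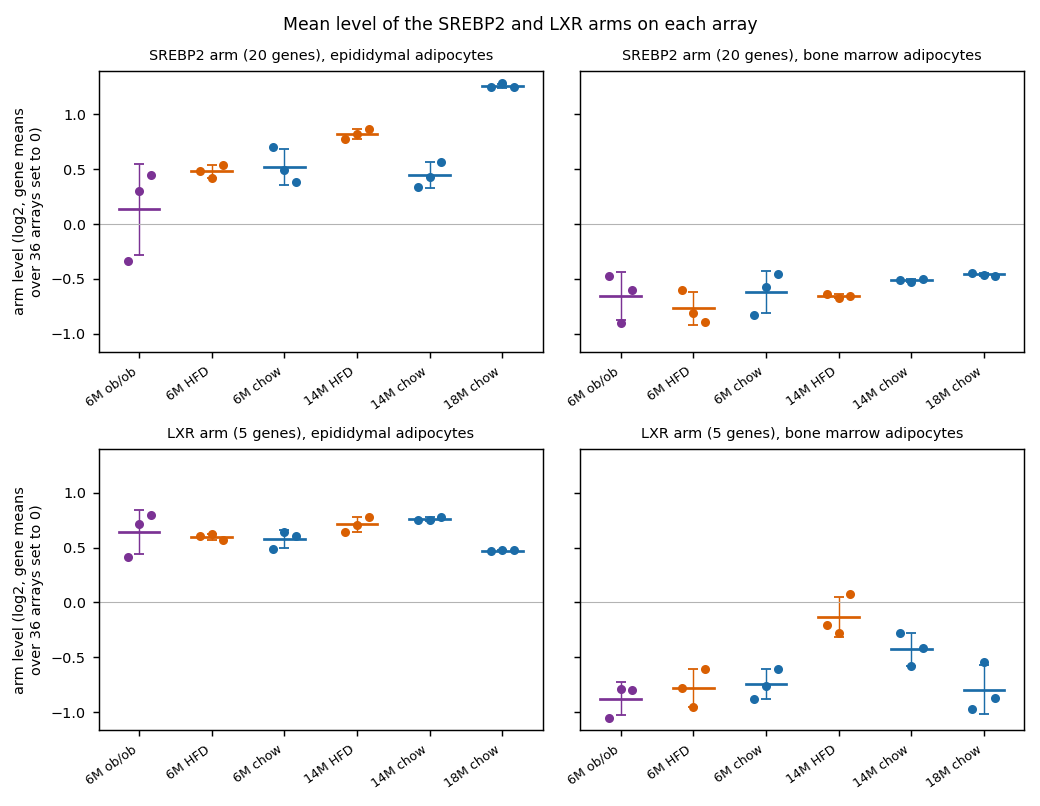
Arm level on each array (log2, each gene set to 0 at its mean over the 36 arrays) for the SREBP2 arm (top) and the LXR arm (bottom) in epididymal (left) and bone marrow adipocytes (right), with points for arrays and bars for the group mean ± SD (n = 3). The 3 epididymal arrays of 18 months stand at 1.25 to 1.28 in the SREBP2 arm and at 0.47 to 0.48 in the LXR arm.

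Members of an arm did not all move with it. Over the 18 epididymal arrays, which share their depot and the age and diet groups, Lss correlated with the mean of the rest of the SREBP2 arm at r = 0.98, Idi1 at 0.97 and Cyp51 at 0.92. Srebf2, which encodes the factor itself, correlated at −0.64, Stard4 at 0.24 and Ebp at 0.27. In the LXR arm the correlations with the rest of the arm were weak or negative, from −0.52 for Abcg1 to 0.35 for Abca1. In bone marrow arrays the correlations within the SREBP2 arm ran from −0.65 for Mvk to 0.86 for Idi1, with Srebf2 at 0.58. Those of Mvd, Ebp, Fdps and Fdft1 were negative there too. Within the LXR arm they ran from 0.14 for Apoe to 0.85 for Nr1h3, with Abcg1 at 0.74. These are descriptions over arrays of 6 groups and carry no test.

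Synthesis enzymes were higher in epididymal adipocytes of old chow mice. At 18 months, against 6 months, 16 member probe sets passed as higher (6.82% of all probe sets did) and 2 as lower (7.63% of all). A probe set passes at an adjusted p under 0.05 in limma, with Benjamini-Hochberg adjustment over 23410 probe sets. Shares of all probe sets belong to the main fit, without added terms and with no array left out. For other settings no such share was computed. All 16 belonged to the SREBP2 arm, whose 22 probe sets had a median difference of 0.79 log2, against −0.06 over all probe sets. They ran from mevalonate kinase (Mvk), near the start of the pathway, to Dhcr7, a reductase at its end. Of the 16, 8 reached a 2-fold change, as 0.829% of all probe sets did.

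Idi1, which isomerizes isopentenyl diphosphate, read 10.06, 9.94 and 9.88 on the 18-month arrays, against 8.76, 8.20 and 8.13 at 6 months, on its first probe set. The difference was 1.60 ± 0.34 log2 (SE, adjusted p = 0.00149), or 3.03-fold, and 1.57 ± 0.33 on the other probe set. Nsdhl, which removes a methyl group from the sterol ring, read 10.65, 10.64 and 10.65, against 9.52, 9.34 and 8.84. Its 18-month arrays were nearly identical and all above those of 6 months, a difference of 1.41 ± 0.23 (adjusted p = 3.97e-05).

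Msmo1, the oxidase that acts before Nsdhl, read 10.81, 10.81 and 10.80 at 18 months, against 9.84, 9.54 and 9.54 at 6 months. Fdps, the farnesyl diphosphate synthase, read 9.19, 9.27 and 9.09, against 8.28, 7.99 and 8.01. Lss, which closes the sterol ring, read 9.33, 9.47 and 9.55, against 8.57, 8.47 and 8.07. All 3 genes had groups that did not overlap, and their differences were 1.17 ± 0.32 for Msmo1 (adjusted p = 0.0129), 1.09 ± 0.13 for Fdps (adjusted p = 3.47e-07) and 1.08 ± 0.17 for Lss (adjusted p = 3.62e-05).

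Tm7sf2, a sterol reductase, was 1.07 ± 0.17 log2 higher (adjusted p = 3.05e-05), and Sqle, the squalene epoxidase, 0.86 ± 0.21 (adjusted p = 0.00489). Insig1, the sterol-sensing target gene whose promoter is shown above, read 13.08, 13.02 and 13.06 at 18 months, against 12.20, 11.77 and 11.80 at 6 months, a difference of 1.13 ± 0.18 (adjusted p = 3.57e-05). Hmgcs1, the HMG-CoA synthase and the only member with the sterol element core in its window, read 11.07, 11.12 and 11.24, against 11.02, 10.72 and 10.90. Its arrays did not overlap, but the difference of 0.26 ± 0.19 did not pass (adjusted p = 0.386). The other members of the arm that did not pass were both Fdft1 probe sets, Ebp, Stard4 and Srebf2.

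Srebf2 itself read 7.98, 8.0 and 7.94 at 18 months, against 8.41, 8.35 and 8.17 at 6 months. Every 18-month array was below every 6-month array, with a difference of −0.34 ± 0.13 that did not pass (adjusted p = 0.0787), although it passed when only the arrays of these groups were fitted (adjusted p = 0.0396). The LXR arm had 1 probe set that passed, Mylip at −0.32 ± 0.11 (adjusted p = 0.0418, lost after median centring, at −0.13 with adjusted p = 0.475, and without any 1 of the 6 arrays but 6-month array 1). Abca1, the exporter to lipid-poor ApoA-I, read 10.67, 10.65 and 10.76, against 11.00, 11.17 and 11.24, a difference of −0.44 ± 0.20 that did not pass (adjusted p = 0.149), or passed with the compared groups alone (adjusted p = 0.0142).

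Abcg1, the exporter to HDL, differed by 0.05 ± 0.16 (adjusted p = 0.862) and Nr1h3 by 0.26 ± 0.21 (adjusted p = 0.457). Npc1 fell to 8.49, 8.46 and 8.65 at 18 months, against 9.16, 9.10 and 9.06 at 6 months (−0.57 ± 0.17, adjusted p = 0.0195). That call was lost after median centring (−0.39, adjusted p = 0.13) and without 6-month array 2, 18-month array 1 or 18-month array 2. After median centring 18 members were higher and 0 lower. The count of members that passed was 11 without 6-month chow array 2 and also 11 without 6-month chow array 3, in place of 18. Without array 3 the call of Sqle was lost, and without either of them those of Msmo1, Hsd17b7, Mvd, Pmvk and Sc5d.

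Markers of other cells moved as well between these groups. Of 10 macrophage probe sets, 8 were lower at 18 months, with mean log2 levels of 6.46 to 6.62, against 7.58 to 7.97 at 6 months. The 7 mature adipocyte markers averaged 12.70 to 12.79 at 18 months and 12.74 to 12.76 at 6 months, and none of them passed. Of 5 endothelial markers 4 were lower, with means of 7.56 to 7.62 at 18 months and 8.28 to 8.50 at 6 months, and of 5 mesothelial markers 3, with means of 6.70 to 6.82 and 7.36 to 7.45. The neutrophil granule markers averaged 6.86 to 7.30 at 18 months, while at 6 months array 1 stood apart at 9.31, against 6.17 and 5.89 on the others, and without that array 16 members were higher and 2 lower. The part of these markers in the results above was not tested.

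**Figure D2:**
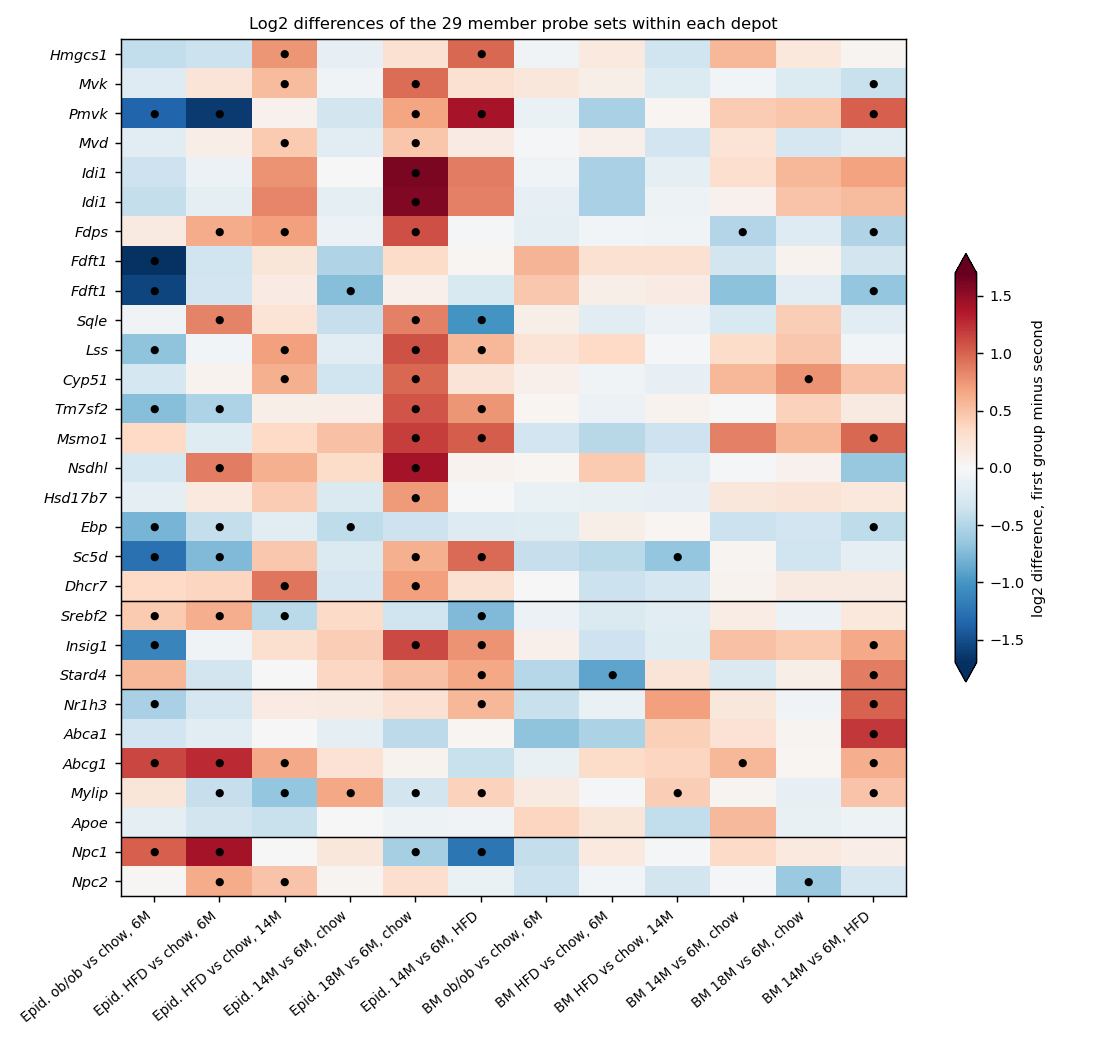
Log2 difference (colour, first group minus second) of the 29 member probe sets in 6 comparisons within epididymal (Epid.) and 6 within bone marrow (BM) adipocytes, with dots where the adjusted p is under 0.05; lines part the synthesis enzymes, the sensing and transport genes, the LXR genes and the lysosomal genes. The column of 18 against 6 months in epididymal cells holds 16 dots in the SREBP2 arm, all higher, and the column of ob/ob against chow in bone marrow holds none.

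Between 14 and 6 months on chow, 1 member probe set passed as higher (8.88% of all) and 2 as lower (6.14% of all) in epididymal adipocytes. Mylip read 9.24, 9.32 and 9.52 at 14 months, against 8.63, 8.80 and 8.67 at 6 months (0.66 ± 0.11, adjusted p = 0.000113). Ebp, a sterol isomerase, differed by −0.43 ± 0.13 and the second Fdft1 probe set by −0.72 ± 0.24. The calls of Ebp and Fdft1 were lost without any 1 of 4 arrays, chow arrays 1 and 2 of either age, and that of Fdft1 also without chow array 3 of 6 months. The SREBP2 arm level differed by −0.08 between these ages, and every 14-month array of Idi1, Nsdhl, Lss and Insig1 lay below every 18-month array. All 10 macrophage markers were higher at 14 months, with means of 9.65 to 10.24, against 7.58 to 7.97, and so were all 5 mesothelial markers, with 8.58 to 8.98, against 7.36 to 7.45. Their part was not tested.

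HFD at 14 months raised part of the synthesis pathway in epididymal adipocytes. Against chow, 9 member probe sets were higher (6% of all probe sets) and 2 lower (7.06% of all). In the SREBP2 arm 7 were higher, namely Hmgcs1, Mvk, Mvd, Fdps, Lss, Cyp51 and Dhcr7, by 0.44 to 0.90 log2, and none reached 2-fold. The median of the arm's probe sets was 0.44, against 0.03 over all probe sets.

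Dhcr7 read 8.34, 8.39 and 8.43 on HFD, against 7.44, 7.44 and 7.57 on chow, a difference of 0.90 ± 0.17 (adjusted p = 0.000563). Hmgcs1 read 11.53, 11.49 and 11.46, against 10.67, 10.68 and 10.88, or 0.75 ± 0.20 higher (adjusted p = 0.0108). In both genes all HFD arrays lay above all chow arrays. Insig1 read 12.60, 12.67 and 12.59, against 12.12, 12.37 and 12.53, and its difference of 0.28 ± 0.19 did not pass (adjusted p = 0.413), nor did that of Sqle (0.23 ± 0.22, adjusted p = 0.616).

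Srebf2 went the other way, with 8.01, 8.16 and 8.37 on HFD, against 8.75, 8.57 and 8.59 on chow (−0.45 ± 0.13, adjusted p = 0.0229). The groups did not overlap, but the call was lost after centring each array on its median (−0.30, adjusted p = 0.156) and without HFD array 1, HFD array 2 or chow array 1. In the LXR arm Abcg1 rose and Mylip fell. Abcg1 read 10.26, 10.28 and 10.38, against 9.86, 9.60 and 9.50 (0.65 ± 0.17, adjusted p = 0.00912, and 0.0515 without chow array 3). Mylip read 8.67, 8.72 and 8.73, against 9.24, 9.32 and 9.52 (−0.65 ± 0.11, adjusted p = 0.000155).

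Abca1 differed by 0.00 ± 0.21 (adjusted p = 0.999) and Nr1h3 by 0.13 ± 0.20 (adjusted p = 0.773). Npc2, the soluble lysosomal carrier, was 0.48 ± 0.13 higher (adjusted p = 0.0127), and Npc1 was at 9.21, 9.24 and 9.46 on HFD, against 9.41, 9.19 and 9.28 on chow, groups that overlapped. The calls of Mvd and Cyp51 were each lost without any 1 of 4 or more of the 6 arrays, that of Lss without HFD array 3, that of Mvk without HFD array 2 and that of Npc2 without chow array 3. The count of members that passed was 7 without HFD array 2, and 17 when only the arrays of these groups were fitted. Markers of lipid-associated macrophages, all 6 probe sets, were higher on HFD, with mean levels of 10.13 to 10.24, against 7.74 to 9.16, while the general macrophage markers averaged 9.68 to 9.81, against 9.65 to 10.24. All 5 mesothelial markers were lower on HFD, with means of 6.48 to 6.51, against 8.58 to 8.98 on chow, and 3 of 5 endothelial markers, with 8.23 to 8.38, against 9.19 to 9.44. The mature adipocyte markers averaged 12.73 to 12.75 on HFD and 12.40 to 12.56 on chow. The part of these markers in the HFD differences was not tested.

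HFD at 6 months moved members in both directions, at shares near those of all genes. In epididymal adipocytes 7 of 29 member probe sets were higher (19.2% of all probe sets) and 5 lower (20% of all). In the SREBP2 arm 4 were higher and 4 lower, with a median of −0.08, against −0.11 over all probe sets, so changes in this comparison stand relative to a shift of −0.11. Pmvk, phosphomevalonate kinase, read 7.09, 6.84 and 6.95 on HFD, against 8.87, 8.51 and 8.39 on chow (−1.63 ± 0.21, or 3.10-fold lower, adjusted p = 4.64e-07). Sc5d, the sterol desaturase, read 10.40, 10.46 and 10.42, against 11.29, 11.14 and 11.10 (−0.75 ± 0.18, adjusted p = 0.00142). The enzymes Tm7sf2 and Ebp were also lower.

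Other enzymes of the same pathway were higher. Nsdhl read 10.13, 10.03 and 10.15, against 9.52, 9.34 and 8.84 (0.87 ± 0.24, adjusted p = 0.00521). Sqle read 8.34, 8.12 and 8.35, against 7.65, 7.53 and 7.09 (0.84 ± 0.22, adjusted p = 0.00317). Fdps was also higher, and so was Srebf2, with 8.98, 8.93 and 8.86, against 8.41, 8.35 and 8.17 (0.61 ± 0.13, adjusted p = 0.000554). Insig1 overlapped between the groups (−0.06 ± 0.19, adjusted p = 0.819), and Hmgcs1 lay lower on every HFD array without passing (−0.36 ± 0.20, adjusted p = 0.152), although it passed after quantile normalization of the 36 arrays (−0.49, adjusted p = 0.0238).

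Outside the SREBP2 arm Npc1 and Abcg1 had the widest differences. Npc1 read 10.50, 10.53 and 10.55 on HFD, against 9.16, 9.10 and 9.06 on chow (1.42 ± 0.18, adjusted p = 2.44e-07). Abcg1 read 10.63, 10.74 and 10.66, against 9.20, 9.51 and 9.51 (1.27 ± 0.17, adjusted p = 7.45e-07). Npc2 was 0.64 ± 0.13 higher, and Mylip was lower (−0.40 ± 0.11, adjusted p = 0.00628). Abca1 (−0.19 ± 0.21, adjusted p = 0.503) and Nr1h3 (−0.28 ± 0.20, adjusted p = 0.286) did not pass. Under the term for the set of 8 arrays, estimated in bone marrow alone, Abca1 passed as lower (−0.77, adjusted p = 0.0377) and Abcg1 stood at 1.75. Mylip no longer passed with that term (−0.19, adjusted p = 0.441).

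The macrophage markers differed strongly between the same arrays. All 10 were higher on HFD by 2-fold or more, with mean log2 levels of 11.33 to 11.41, against 7.58 to 7.97 on chow, and all 6 lipid-associated macrophage markers too, at 11.58 to 11.61, against 6.95 to 7.14. The mature adipocyte markers averaged 12.40 to 12.44 on HFD and 12.74 to 12.76 on chow. The part of macrophages in the changes of Npc1, Abcg1 and the other members was not tested. Of 5 mesothelial markers 4 were lower, with means of 6.53 to 6.63 on HFD and 7.36 to 7.45 on chow. With the term for the set of 8 arrays, estimated in bone marrow alone, 4 members were higher and 5 lower. With it Pmvk stood at −0.84 and Npc1 at 0.89, and Nsdhl (0.39, adjusted p = 0.453), Sc5d (−0.61, adjusted p = 0.0997), Fdps, Tm7sf2 and Npc2 no longer passed, while both Fdft1 probe sets did. With only the arrays of these groups 8 were higher and 10 lower.

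By the interaction of diet and age in epididymal cells, 4 of 29 member probe sets were higher (14.8% of all probe sets) and 3 lower (15.9% of all). Higher means that the signed HFD effect was more positive, or less negative, at 14 months, which need not be the larger effect. These shares do not exceed those of all probe sets. Pmvk differed by 1.71 ± 0.30 (adjusted p = 6.2e-05), Sc5d by 1.21 ± 0.26 (adjusted p = 0.000572) and Hmgcs1 by 1.11 ± 0.28 (adjusted p = 0.00315). Srebf2 differed by −1.07 ± 0.19 (adjusted p = 8.3e-05), Npc1 by −1.41 ± 0.25 (adjusted p = 7.3e-05) and Abcg1 by −0.62 ± 0.24 (adjusted p = 0.0489, lost without any 1 of 11 of the 12 arrays and after quantile normalization or median centring). The HFD effects on Srebf2 and on Hmgcs1 had opposite signs at the 2 ages, although that on Hmgcs1 did not pass at 6 months.

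Compared directly, HFD adipocytes of 14 against 6 months had 10 member probe sets higher (16.1% of all) and 3 lower (16.2% of all) in the epididymal depot. Pmvk was 1.40 ± 0.21 higher (adjusted p = 7.47e-06), Msmo1 1.03 ± 0.35 (adjusted p = 0.022) and Hmgcs1 0.98 ± 0.20 (adjusted p = 0.000319). Sqle read 7.27, 7.24 and 7.25 at 14 months, against 8.34, 8.12 and 8.35 at 6 months (−1.01 ± 0.22, adjusted p = 0.000691), and Npc1 was lower (−1.22 ± 0.18, adjusted p = 4.04e-06). With the term for the set of 8 arrays, estimated in bone marrow alone, 2 were higher and 4 lower. Msmo1, Pmvk and Insig1 were among those that no longer passed. The call of Msmo1 was also lost without any 1 of HFD arrays 1 and 2 of either age. Of the macrophage markers 9 of 10 were lower at 14 months, and their part was not tested.

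Several synthesis enzymes were lower in epididymal adipocytes of ob/ob mice. Against chow at 6 months, 3 member probe sets were higher (14.8% of all) and 9 lower (15% of all), and 8 of the 9 lower ones belonged to the SREBP2 arm, whose median was −0.33, against −0.07 over all probe sets. Fdft1, the squalene synthase, read 6.65, 7.46 and 7.62 in ob/ob cells, against 8.91, 8.98 and 8.90 in chow cells on its first probe set (−1.69 ± 0.26, or 3.22-fold lower, adjusted p = 9.8e-06), and differed by −1.56 ± 0.24 on the other. Pmvk read 6.82, 7.41 and 7.49, against 8.87, 8.51 and 8.39 (−1.35 ± 0.21, adjusted p = 1.17e-05).

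Sc5d read 9.21, 10.26 and 10.27, against 11.29, 11.14 and 11.10 (−1.26 ± 0.18, adjusted p = 3.38e-06). Insig1 read 10.30, 10.97 and 11.12, against 12.20, 11.77 and 11.80 (−1.13 ± 0.19, adjusted p = 2.98e-05). In all of these every ob/ob array lay below every chow array, and ob/ob array 1 was the lowest. Lss, Tm7sf2 and Ebp were also lower, with differences of −0.68, −0.72 and −0.79, while Hmgcs1 (−0.42 ± 0.20, adjusted p = 0.122) and Sqle (−0.06 ± 0.22, adjusted p = 0.88) did not pass. Without ob/ob array 1 the balance was 6 members higher and 7 lower. Then the median of the SREBP2 arm probe sets was −0.09, the arm level differed by −0.15 in place of −0.39, Msmo1 (0.95, adjusted p = 0.0125), Dhcr7 (0.62, adjusted p = 0.00264) and Stard4 passed as higher, and Lss no longer passed (−0.39, adjusted p = 0.0683).

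Srebf2 was again opposite to its arm, with 8.47, 8.77 and 9.03 in ob/ob cells, against 8.41, 8.35 and 8.17 in chow cells (0.45 ± 0.13, adjusted p = 0.0125). That call was lost after median centring (0.33, adjusted p = 0.0773), when only these groups were fitted (adjusted p = 0.0779) and without ob/ob array 3 or chow array 3. Abcg1 was 1.14 ± 0.17 higher (10.36, 10.52 and 10.75 in ob/ob cells, against 9.20, 9.51 and 9.51 in chow cells, adjusted p = 5.89e-06), and Npc1 1.02 ± 0.18 (9.90, 10.19 and 10.28, against 9.16, 9.10 and 9.06, adjusted p = 4.74e-05). Nr1h3 was lower (−0.55 ± 0.20, adjusted p = 0.0398, lost without any 1 of 5 of the 6 arrays), and Abca1 did not pass (−0.32 ± 0.21, adjusted p = 0.272).

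The 10 macrophage markers were all higher in ob/ob cells, with means of 10.49 to 11.23, against 7.58 to 7.97, and 5 of the 7 mature adipocyte markers were lower, with means of 11.42 to 11.90, against 12.74 to 12.76. Their part was not tested. Set against HFD of the same age, ob/ob cells had 2 member probe sets higher (14.7% of all) and 11 lower (17.3% of all). Insig1 differed by −1.07 ± 0.19 (adjusted p = 7.71e-05), Nsdhl by −1.17 ± 0.24 (adjusted p = 0.000475) and the first Fdft1 probe set by −1.34 ± 0.26 (adjusted p = 0.000219). Abcg1 (−0.13 ± 0.17, adjusted p = 0.609) and Srebf2 (−0.17 ± 0.13, adjusted p = 0.385) did not pass. With the term for the set of 8 arrays, estimated in bone marrow alone, 2 of the 13 passed, Sqle and Insig1, at −1.21 and −1.54.

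**Figure D3:**
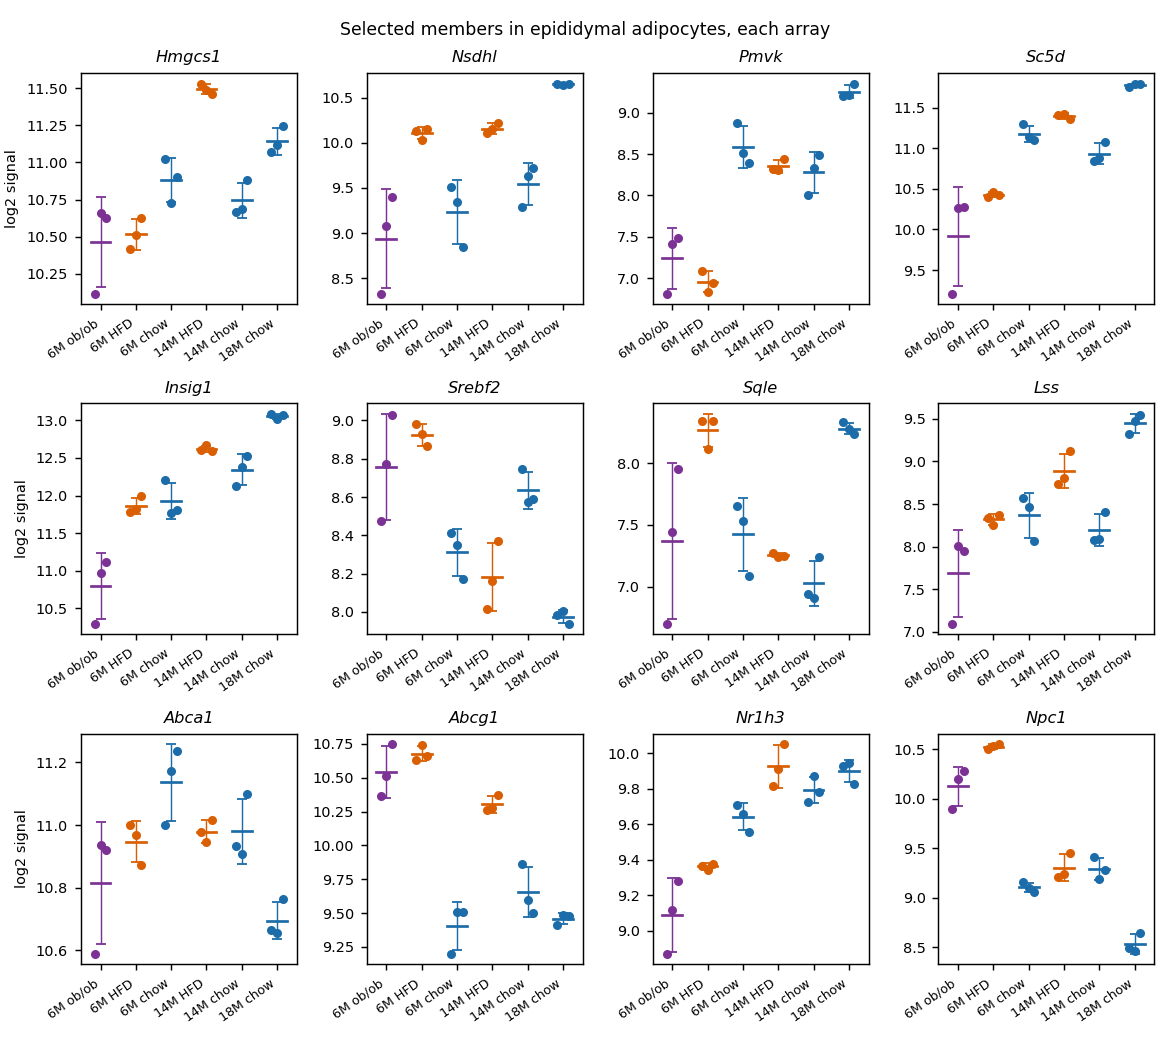
Log2 signal of 12 members on each epididymal array (points), with the group mean ± SD (bars, n = 3), by age and diet or genotype; each panel has its own axis. Insig1 is highest at 18 months (13.02 to 13.08) and lowest in ob/ob mice (10.30 to 11.12), and Srebf2 is lowest at 18 months (7.94 to 8.0).

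In bone marrow adipocytes few members passed for HFD or ob/ob, and few of all probe sets did. Against chow, HFD at 6 months had 0 members higher (2.23% of all) and 1 lower (2.53% of all). This was Stard4, with 6.98, 6.69 and 6.64 on HFD, against 7.01, 7.84 and 8.15 on chow (−0.89 ± 0.23, adjusted p = 0.0232). By the unadjusted p of limma 5 of 29 were under 0.05, but the share of all probe sets under that rule was not computed, so that count says nothing particular to the members. The call of Stard4 was lost without chow array 2, chow array 3, HFD array 2 or HFD array 3, and with the term for the set of 8 arrays (−0.42, adjusted p = 0.488). With that term, or without chow array 2, the 1 call was Abca1 as lower (−0.93, adjusted p = 0.0278, and −0.86, adjusted p = 0.0139). Without chow array 1 the count was 4. HFD at 14 months had 1 higher (1.1% of all), Mylip with 0.42 ± 0.11 (adjusted p = 0.0389), and 1 lower (1.86% of all), Sc5d with −0.66 ± 0.18 (adjusted p = 0.0427). Neither passed when any 1 of the 6 arrays was left out, and without chow array 1 a single member passed, Nr1h3 (0.98, adjusted p = 0.00669).

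In ob/ob bone marrow no member passed against chow (0.0726% of all higher, 0.205% lower) or against HFD (2.06% higher, 2.76% lower) in limma. By unadjusted p 6 and 7 were under 0.05, but the percentages given are for adjusted p. The share of all probe sets by unadjusted p was not computed, so these counts say nothing particular to the members. Abca1 read 7.41, 7.63 and 8.34 in ob/ob cells, against 8.70, 7.85 and 8.88 in chow cells (−0.68 ± 0.21, adjusted p = 0.225). It passed without chow array 2 (−0.99, adjusted p = 0.00653) or without ob/ob array 3 (−0.95, adjusted p = 0.0152), where 2 members did. Against HFD, 5 members passed without ob/ob array 3. Insig1 differed from chow by 0.08 ± 0.19 (adjusted p = 0.953), Srebf2 by −0.10 ± 0.13 (adjusted p = 0.907) and Hmgcs1 by −0.05 ± 0.20 (adjusted p = 0.974).

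In bone marrow the group means of the LXR arm lay farther apart than those of the SREBP2 arm. The LXR arm stood at −0.14 ± 0.18 on HFD at 14 months, −0.43 ± 0.15 on chow at 14 months and between −0.88 and −0.75 in the other 4 groups. The SREBP2 arm stood between −0.77 and −0.46 in all 6. On HFD, 14 against 6 months gave 8 members higher (12.4% of all) and 4 lower (9.23% of all), and 4 of the 5 LXR arm genes were among the higher ones. The other 4 higher ones, by 0.64 to 1.02, and all 4 lower ones, by −0.65 to −0.37, belonged to the SREBP2 arm. The mean level of that arm thus averages over changes in both directions.

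Abca1 read 9.07, 9.02 and 9.31 at 14 months on HFD, against 7.88, 7.79 and 8.13 at 6 months (1.20 ± 0.21, adjusted p = 0.000203). Nr1h3 read 7.68, 7.80 and 8.49, against 7.07, 6.62 and 7.29 (1.00 ± 0.20, adjusted p = 0.000814), and Abcg1 10.10, 10.06 and 10.42, against 9.84, 9.31 and 9.58 (0.62 ± 0.17, adjusted p = 0.00922). In all 3 genes the groups did not overlap. Pmvk was higher by 1.02 ± 0.21 (adjusted p = 0.00095) and Insig1 by 0.64 ± 0.19 (adjusted p = 0.0144).

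With the term for the set of 8 arrays only Abca1 passed here (1.78, adjusted p = 0.000484), and Nr1h3 stood at 1.01 (adjusted p = 0.0529). Without 6-month array 3, or without 14-month array 3, 7 members passed, and in either case the call of Insig1 was lost, while that of Abcg1 was lost without 6-month array 2 or 14-month array 3. The macrophage markers averaged 9.78 to 10.19 at 14 months and 9.84 to 10.43 at 6 months. Summed on the linear scale, they were lower on every 14-month array, at 10800 to 13200, against 15800 to 20900. Their part was not tested. On chow, 14 against 6 months had 1 member higher (3.65% of all), Abcg1 at 0.56 ± 0.17 (adjusted p = 0.0488, lost without chow array 1 of 6 months or any array of 14 months), and 1 lower (1.65% of all), Fdps at −0.50 ± 0.14 (adjusted p = 0.0306, lost without any 1 of 4 of the 6 arrays and with the term for the set of 8 arrays). The count of these calls was 3 without chow array 3 of 6 months.

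The rise of synthesis enzymes at 18 months was not seen in bone marrow. There 1 member was higher at 18 than at 6 months (2.38% of all), the sterol demethylase gene Cyp51, with 6.61, 6.77 and 6.73, against 5.62, 5.94 and 6.28 (0.76 ± 0.19, adjusted p = 0.014). Npc2 was lower (4.24% of all probe sets were), with 9.36, 9.59 and 9.20, against 10.22, 9.98 and 9.85 (−0.64 ± 0.13, adjusted p = 0.00295). Without 6-month array 1, or without 18-month array 2, no member passed as higher and 1 as lower. The median over the SREBP2 arm was 0.16, against −0.06 over all probe sets, and whether the age effect differed between the depots was not tested.

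The depot comparisons called 19 to 28 members, but also larger shares of all probe sets than any comparison of diet, genotype or age. The counts are therefore not ranked against those of the other comparisons. In chow mice of 6 months 20 member probe sets were higher in epididymal than in bone marrow adipocytes (23.5% of all) and 3 were lower (21.1% of all). At 14 months 18 were higher (23.1%) and 1 lower (20.9%), at 18 months 24 higher (25.1%) and 4 lower (21.5%), and in ob/ob mice 19 higher (23.7%) and 3 lower (20.6%). The median over all 29 was 1.00, 0.85, 1.68 and 0.99 in these comparisons.

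Hmgcs1 read 11.02, 10.72 and 10.90 in epididymal cells of 6-month chow mice, against 7.33, 7.55 and 8.02 in bone marrow, 9.52-fold higher (3.25 ± 0.20 log2, adjusted p = 1.09e-13). Lss read 8.57, 8.47 and 8.07, against 5.60, 5.45 and 5.40 (2.88 ± 0.18, adjusted p = 2.06e-13). Its bone marrow values here lay below the median of all values, 5.81. Sc5d was 2.52 ± 0.18 higher (adjusted p = 2.66e-12) and Insig1 2.35 ± 0.19 (adjusted p = 2.47e-11). Both arms took part, since Abca1 was 2.66 ± 0.21 higher (adjusted p = 1.95e-11), with 11.00, 11.17 and 11.24, against 8.70, 7.85 and 8.88, and Nr1h3 2.53 ± 0.20 (adjusted p = 2.54e-11).

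Srebf2 was the reverse of its arm here as well. It read 8.41, 8.35 and 8.17 in epididymal cells, against 8.91, 9.17 and 9.17 in bone marrow (−0.77 ± 0.13, adjusted p = 2.04e-05), and was also lower at 14 months (−0.58 ± 0.13, adjusted p = 0.000752) and 18 months (−1.01 ± 0.13, adjusted p = 5.36e-08) but did not pass in ob/ob mice (−0.23 ± 0.13, adjusted p = 0.178). Stard4 was lower in epididymal cells at 6 months (−1.11 ± 0.23, adjusted p = 0.000157). Abcg1 did not pass on chow at any age (0.14 ± 0.17, −0.17 ± 0.17 and 0.16 ± 0.16 at 6, 14 and 18 months) and was higher in epididymal cells of ob/ob mice (1.40 ± 0.17, adjusted p = 9.36e-08).

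The depot differences go with the cell make-up given above, in which adipocyte markers were high in epididymal cells and blood cell markers in bone marrow, and its part was not tested. Sqle, at 0.64 ± 0.22 (adjusted p = 0.0195) on chow at 6 months, lost its call without bone marrow array 1 or 3 or epididymal array 1 or 2, and with the term for the set of 8 arrays.

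**Figure D4:**
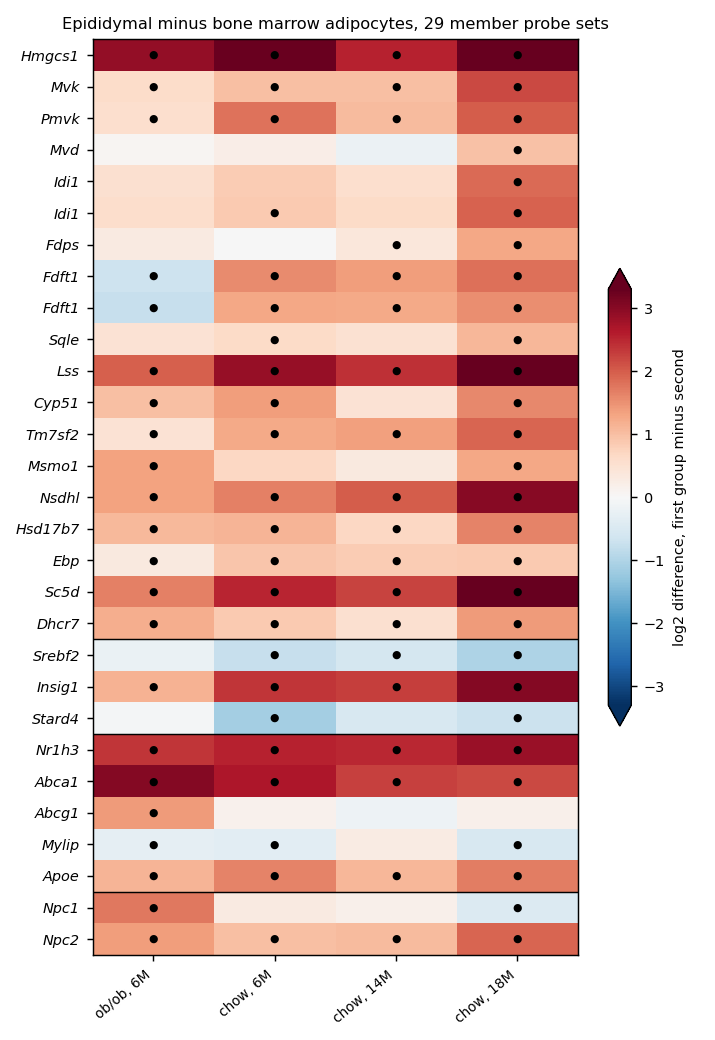
Log2 difference (colour, epididymal minus bone marrow) of the 29 member probe sets in ob/ob mice and in chow mice of 6, 14 and 18 months, with dots where the adjusted p is under 0.05. At 18 months 28 of the 29 passed, 24 of them higher in epididymal cells, while Srebf2 was lower at each age on chow.

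The effects of HFD also differed between the depots. At 6 months the interaction of diet and depot gave 7 members higher (11.5% of all) and 1 lower (7.17% of all). Higher means that the signed HFD effect was more positive, or less negative, in epididymal cells. Npc1 differed by 1.25 ± 0.25 (adjusted p = 0.000491), Sqle by 1.02 ± 0.31 (adjusted p = 0.0215), Abcg1 by 0.96 ± 0.24 (adjusted p = 0.00451), Srebf2 by 0.85 ± 0.19 (adjusted p = 0.0016) and Pmvk by −1.08 ± 0.30 (adjusted p = 0.00983). Sqle no longer passed after quantile normalization or without bone marrow chow array 2, bone marrow HFD array 3 or epididymal chow array 3. The macrophage markers of these groups averaged 11.33 to 11.41 on HFD and 7.58 to 7.97 on chow in epididymal cells. In bone marrow they averaged 9.84 to 10.43 on HFD and 9.85 to 10.07 on chow. Summed on the linear scale, they did not overlap there, with 15800 to 20900 on HFD and 11200 to 14400 on chow. Their part was not tested.

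At 14 months 7 were higher (3.49% of all) and 1 lower (3.9% of all). Dhcr7 differed by 1.19 ± 0.25 (adjusted p = 0.00239), Sc5d by 1.12 ± 0.26 (adjusted p = 0.00565), Hmgcs1 by 1.09 ± 0.28 (adjusted p = 0.0142) and Mylip by −1.07 ± 0.16 (adjusted p = 5.81e-05). Mylip fell on HFD in epididymal cells and rose on HFD in bone marrow.

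The ob/ob effects differed between the depots for 12 members, 4 higher (10.7% of all) and 8 lower (9.13% of all) in the epididymal depot. Both Fdft1 probe sets differed by −2.26 ± 0.37 (adjusted p = 3.95e-05) and −2.03 ± 0.34 (adjusted p = 5.19e-05). Pmvk differed by −1.24 ± 0.30 (adjusted p = 0.00314), Insig1 by −1.21 ± 0.27 (adjusted p = 0.00131), Npc1 by 1.43 ± 0.25 (adjusted p = 9.54e-05) and Abcg1 by 1.26 ± 0.24 (adjusted p = 0.000268). These contrasts share the chow arrays with those above. The interaction of diet and age in bone marrow gave Stard4 alone, with 1.11 ± 0.32 (adjusted p = 0.0406, 2.39% of all higher and 2.94% lower). That call was lost without any 1 of 10 of the 12 arrays, with the term for the set of 8 arrays (0.64, adjusted p = 0.273) and with the replicate number as a block (adjusted p = 0.0518), and 3 members passed without chow array 1 of 6 months.

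Other genes of these pathways gave the following calls. Of 8 other sterol synthesis and SREBP probe sets, 3 were higher (19.2% of all probe sets) and 3 lower (20%) on HFD at 6 months in epididymal cells, and 2 were lower in ob/ob mice (15%). On HFD at 14 months 1 was higher (6%), and 1 at 18 months (6.82%), a single probe set in each. Insig2, the second retention protein, averaged 9.03 ± 0.03 on HFD at 6 months and 10.56 ± 0.07 on chow (SD, n = 3 each), a difference of −1.53 ± 0.18 (adjusted p = 1.58e-07), and was also lower in ob/ob mice (−1.17, adjusted p = 1.39e-05). Srebf1, the sister factor that drives fatty acid synthesis and is an LXR target, was lower in ob/ob mice (−1.36, adjusted p = 3.28e-06).

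Of 15 other LXR target and cholesterol handling probe sets, 7 were higher and 4 lower on HFD at 6 months in epididymal cells (19.2% and 20% of all), and 7 and 4 in ob/ob mice (14.8% and 15%). Nceh1, a cholesteryl ester hydrolase known from macrophages, averaged 11.42 on HFD at 6 months and 5.81 on chow (5.61 higher, adjusted p = 5.87e-13), and 9.61 in ob/ob mice (3.80 higher than chow, adjusted p = 9.68e-10). Lipa, the lysosomal acid lipase, was 2.72 higher on HFD and 2.14 higher in ob/ob mice, and Pltp, the phospholipid transfer protein, 2.44 and 1.76 higher. Tspo and Vldlr, a mitochondrial cholesterol-binding protein and a lipoprotein receptor, were lower on HFD at 6 months (−1.45 and −1.16, adjusted p = 7.82e-07 and 0.000295). At 18 months 2 of the 15 were higher (6.82% of all) and none lower (7.63% of all), without reaching 2-fold.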

How the data were processed

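The authors deposited 1 log2 value for each probe set and array of the 36 arrays. Per the study's methods these are gcRMA summaries with quantile normalization from Partek Genomics Suite, while RMA and GCRMA both stand in the tool list of the labels, and which arrays were normalized together is not given in the sources used here. The values were used as deposited. Normalization to equal distributions can hide a change that most genes share. A table of diet composition was not used.

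In R 4.3.3, limma 3.58.1 (lmFit, then eBayes) estimated group means from the 30 arrays of 10 groups, or from all 36 for 18-month comparisons, with 20 and 24 residual degrees of freedom. Of 35556 probe sets, 23410 with a gene symbol were tested, and p-values were adjusted over them by Benjamini-Hochberg. Of the 23 comparisons 5 were interactions. Members, lists, motifs and tests were chosen with earlier results of these data known. Named genes were members with at least a 2-fold change that passed (at most 6 a direction), and Srebf2, Nr1h3, Insig1, Hmgcs1, Sqle, Abca1 and Abcg1. Other members named were chosen after their values were seen. The script was tested on simulated data. Same-numbered arrays did not deviate together (correlations of −0.14 to 0.09 between the depots of 6- and 14-month chow mice), so replicate numbers were not taken as pairs, although these depots came from the same animals. With so few arrays a group, such correlations cannot exclude that same-numbered pools shared animals.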

Additional observations from a re-analysis of the deposited data

Results flagged for a closer look

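The members below were singled out because the effect of diet or genotype on them differed at least 2-fold between ages or depots, by limma's test of the interaction with Benjamini-Hochberg adjustment over 23410 probe sets. A positive value means that the signed effect was more positive, or less negative, at 14 months, or in epididymal cells. It does not say which of the effects was larger. No group had enough arrays for a test of single outlying arrays.

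In epididymal cells the HFD effect at 14 against 6 months differed by 1.11 for Hmgcs1 (adjusted p = 0.00315), 1.71 for Pmvk (adjusted p = 6.2e-05), 1.21 for Sc5d (adjusted p = 0.000572), −1.07 for Srebf2 (adjusted p = 8.3e-05) and −1.41 for Npc1 (adjusted p = 7.3e-05). The 10 macrophage probe sets all differed the same way as Npc1, with a median of −3.66, and their part was not tested. In bone marrow the same difference was 1.11 for Stard4 (adjusted p = 0.0406), a call lost with the term for the set of 8 arrays (0.64, adjusted p = 0.273), with the replicate number as a block (adjusted p = 0.0518) and without any 1 of 10 of the 12 arrays.

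Between epididymal and bone marrow cells the HFD effect at 6 months differed by −1.08 for Pmvk (adjusted p = 0.00983), 1.02 for Sqle (adjusted p = 0.0215) and 1.25 for Npc1 (adjusted p = 0.000491). Macrophage markers rose on HFD in epididymal cells. In bone marrow their mean log2 levels overlapped between the diets. Summed on the linear scale, they were higher on every HFD array there, at 15800 to 20900, against 11200 to 14400 on chow. Their part was not tested. At 14 months it differed by 1.09 for Hmgcs1 (adjusted p = 0.0142), 1.12 for Sc5d (adjusted p = 0.00565), 1.19 for Dhcr7 (adjusted p = 0.00239) and −1.07 for Mylip (adjusted p = 5.81e-05).

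The ob/ob effect differed between the depots by −1.24 for Pmvk (adjusted p = 0.00314), −2.26 and −2.03 for the Fdft1 probe sets (adjusted p = 3.95e-05 and 5.19e-05) and −1.21 for Insig1 (adjusted p = 0.00131). It differed by 1.04 for Stard4 (adjusted p = 0.0207), a call lost after quantile normalization (0.86, adjusted p = 0.0513), with only the groups compared (adjusted p = 0.152) and without any 1 of 4 of the 12 arrays. It differed by 1.26 for Abcg1 (adjusted p = 0.000268) and 1.43 for Npc1 (adjusted p = 9.54e-05). All 10 macrophage probe sets differed upward here, with a median of 3.43, and their part was not tested.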

How the results depend on the processing

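Counts are of the 29 member probe sets that passed. Shares of all probe sets were not computed for these settings, so a moved count or turned balance is not a result about the members alone. The term for the set of 8 arrays was estimated in bone marrow alone. No named member that passed changed its sign, but the balance of calls turned in epididymal cells. With the term for the set of 8 arrays 14 against 6 months on HFD had 2 higher and 4 lower in place of 10 and 3, and HFD at 6 months 4 and 5 in place of 7 and 5, or 8 and 10 with only the arrays of the groups compared. Arm differences without single arrays were chosen after seeing the data. Of the values of single members under other settings, 1321 kept their side of the threshold, 27 passed anew and 31 no longer passed, and of those with an array left out 1116, 8 and 52. With only the arrays of the groups compared, HFD against chow called 17 in place of 11 in epididymal cells at 14 months and 0 in place of 1 in bone marrow at 6 months. Under that setting 14 against 6 months on chow called 5 in place of 3 in epididymal cells and 0 in place of 2 in bone marrow, and 18 against 6 months in bone marrow 0 in place of 2. The interactions called 16 in place of 7 (diet by age, epididymal), 0 in place of 1 (diet by age, bone marrow), 15 in place of 8 (diet by depot, 14 months) and 5 in place of 12 (genotype by depot). With array weights (fitted gene by gene, because the default fit did not converge), HFD in bone marrow called 6 at 6 months and 5 in place of 2 at 14 months, ob/ob against HFD in bone marrow 5 in place of 0, and 14 against 6 months 5 in epididymal chow cells, 1 in bone marrow chow cells and 20 in place of 12 in bone marrow HFD cells. Diet by age called 15 in epididymal cells and 6 in bone marrow, and diet by depot at 14 months 15. With the term for the set of 8 arrays, ob/ob against HFD called 2 in place of 13 in epididymal cells and 1 in bone marrow, and 14 against 6 months 6 in place of 13 in epididymal HFD cells, 1 in bone marrow HFD cells and 0 in bone marrow chow cells.

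After quantile normalization HFD in bone marrow at 14 months called 1 and diet by age in bone marrow 2, after median centring 0 and 0, and 14 against 6 months in bone marrow chow cells 1. With all 36 arrays, and among probe sets above the median value, ob/ob against HFD in bone marrow called 1 and diet by age in bone marrow 2. Replicate numbers were not taken as pairs. With them as a replicate block ob/ob against HFD in bone marrow called 1 in place of 0 and 14 against 6 months in bone marrow chow cells 1 in place of 2, while no other count moved by over 1.5 times. The block also ended single calls near the threshold, such as Stard4 and Abcg1 in the interactions of diet and age.

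With each array left out in turn, the HFD counts ran from 10 to 12 (epididymal, 6 months), 7 to 10 (epididymal, 14 months), 0 to 4 (bone marrow, 6 months) and 0 to 1 (bone marrow, 14 months). The ob/ob counts ran from 10 to 13 in epididymal cells against either diet, and in bone marrow from 0 to 2 against chow and 0 to 5 against HFD. The age counts in epididymal cells ran from 1 to 3 (14 months, chow), 9 to 12 (14 months, HFD) and 11 to 18 (18 months), and in bone marrow from 0 to 3, 7 to 12 and 1 to 3. The depot counts ran from 20 to 24, 16 to 21 and 27 to 28 on chow at 6, 14 and 18 months, and from 19 to 22 in ob/ob mice. The interactions ran from 5 to 7 (diet by age, epididymal), 0 to 3 (diet by age, bone marrow), 6 to 9 and 7 to 8 (diet by depot, 6 and 14 months) and 8 to 13 (genotype by depot).

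Why counts moved was not tested. With 3 arrays a group the precision is limited, and all member probe sets had means above the median value of all probe sets, 5.81.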
